A study of Drosophila melanogaster with 2 samples.

Results

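Genes that specify mesoderm and muscle in the fly embryo were examined for peaks of an eGFP-tagged Buttonless (btn) protein: org-1, tup, Mef2, twi, zfh1, Him, htl, mid, H15 and nau. They are 10 of 13968 annotated protein-coding genes, chosen by name, and a peak was counted for a gene when its summit fell inside the gene or at most 2 kb outside it. Chromatin immunoprecipitation followed by sequencing had been done on whole embryos of mixed sex, collected 0 to 14 hours after egg laying, from a transgenic line that stably expresses btn with eGFP at its C-terminus. The sample descriptions give an antibody against GFP, whereas the antibody field of the labels names btn. The chromatin was sonicated to 200 to 800 bp, and there was 1 group with 2 biological replicates, which the labels number 2 and 3. Embryos without the tag were not analysed here, and binding by btn was not separated from other sources of signal. All tissues of the embryo were pooled, and a site used in few cells cannot be told apart from a site with low occupancy in many. The lists hold no read counts, so depth is unknown. Signal below is the authors' own value per region and is used only to rank regions within a list; there is 1 group and no statistical test was made, so the counts below are descriptions.

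btn encodes a homeodomain protein needed for the dorsal median cells, mesodermal cells that lie at the midline of the embryo. In the mesoderm twi (twist), a bHLH factor, acts at the top, and htl (heartless), a receptor for fibroblast growth factors, guides the spreading of mesodermal cells. Mef2 drives muscle differentiation, Him and the zinc finger homeodomain factor zfh1 hold it back, and nau (nautilus) is the fly member of the MyoD family. The T-box gene org-1 and the LIM-homeodomain gene tup (tailup) set the identity of individual muscles, and the T-box pair mid (midline) and H15 acts in the heart.

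Peaks outside Mef2 that passed the authors' reproducibility analysis, called optimal peaks here, are shown by the 101 bases centred on each summit, read 5′ to 3′ on the forward strand of the Release 6 genome (dm6). They are shown because these summits are the ones on which 4 of the 5 genes with a peak rest. Capitals mark matches, on either strand, to any of 8 words. The words were TAATTA (the homeodomain core), TGATNNAT (a composite site of Exd and Hox proteins), CANNTG (the E-box of bHLH factors), CATATG (a form of the E-box favoured by Twist, which counts under both words), CAGGTAG (the site of the early activator Zelda), GAGAG (bound by Trithorax-like), AGGTGT (a core of T-box sites) and GATAA (bound by zinc finger factors such as Pannier). Each E-box in these windows reads as CANNTG, and no other word matched.
org-1 promoter, chrX:8455339-8455439: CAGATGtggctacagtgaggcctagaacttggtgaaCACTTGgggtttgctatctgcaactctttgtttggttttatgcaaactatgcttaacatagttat
tup promoter, chr2L:18881389-18881489: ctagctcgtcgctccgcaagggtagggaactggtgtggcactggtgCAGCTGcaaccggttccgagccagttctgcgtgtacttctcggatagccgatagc
tup downstream flank, chr2L:18857787-18857887: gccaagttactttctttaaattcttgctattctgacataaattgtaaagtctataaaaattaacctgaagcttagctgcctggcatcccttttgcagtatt
zfh1 intron, chr3R:30781729-30781829: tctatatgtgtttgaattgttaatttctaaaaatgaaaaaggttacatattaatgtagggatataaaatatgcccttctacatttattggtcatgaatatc
nau intron, chr3R:23714025-23714125: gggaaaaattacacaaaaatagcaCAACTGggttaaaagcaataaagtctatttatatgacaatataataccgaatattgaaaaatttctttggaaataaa

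An optimal summit was found at 5 of the 10 genes: Mef2, zfh1, org-1, tup and nau. It was found at 18.7% of all protein-coding genes, and at 21.8% of the 9672 genes whose length lies within the range of the members, 1315 to 62952 bp. Mef2 had 4 optimal summits and tup had 2, and 3.87% of protein-coding genes had 2 or more summits. The remaining 5 genes, twi, Him, htl, mid and H15, had none. Every member had at least 1 candidate region in the pooled list of 30000, as did 81.9% of protein-coding genes. Counted over the gene bodies alone, 3 members (Mef2, zfh1 and nau) had an optimal summit, against 7.11% of protein-coding genes.

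**Figure D1:**
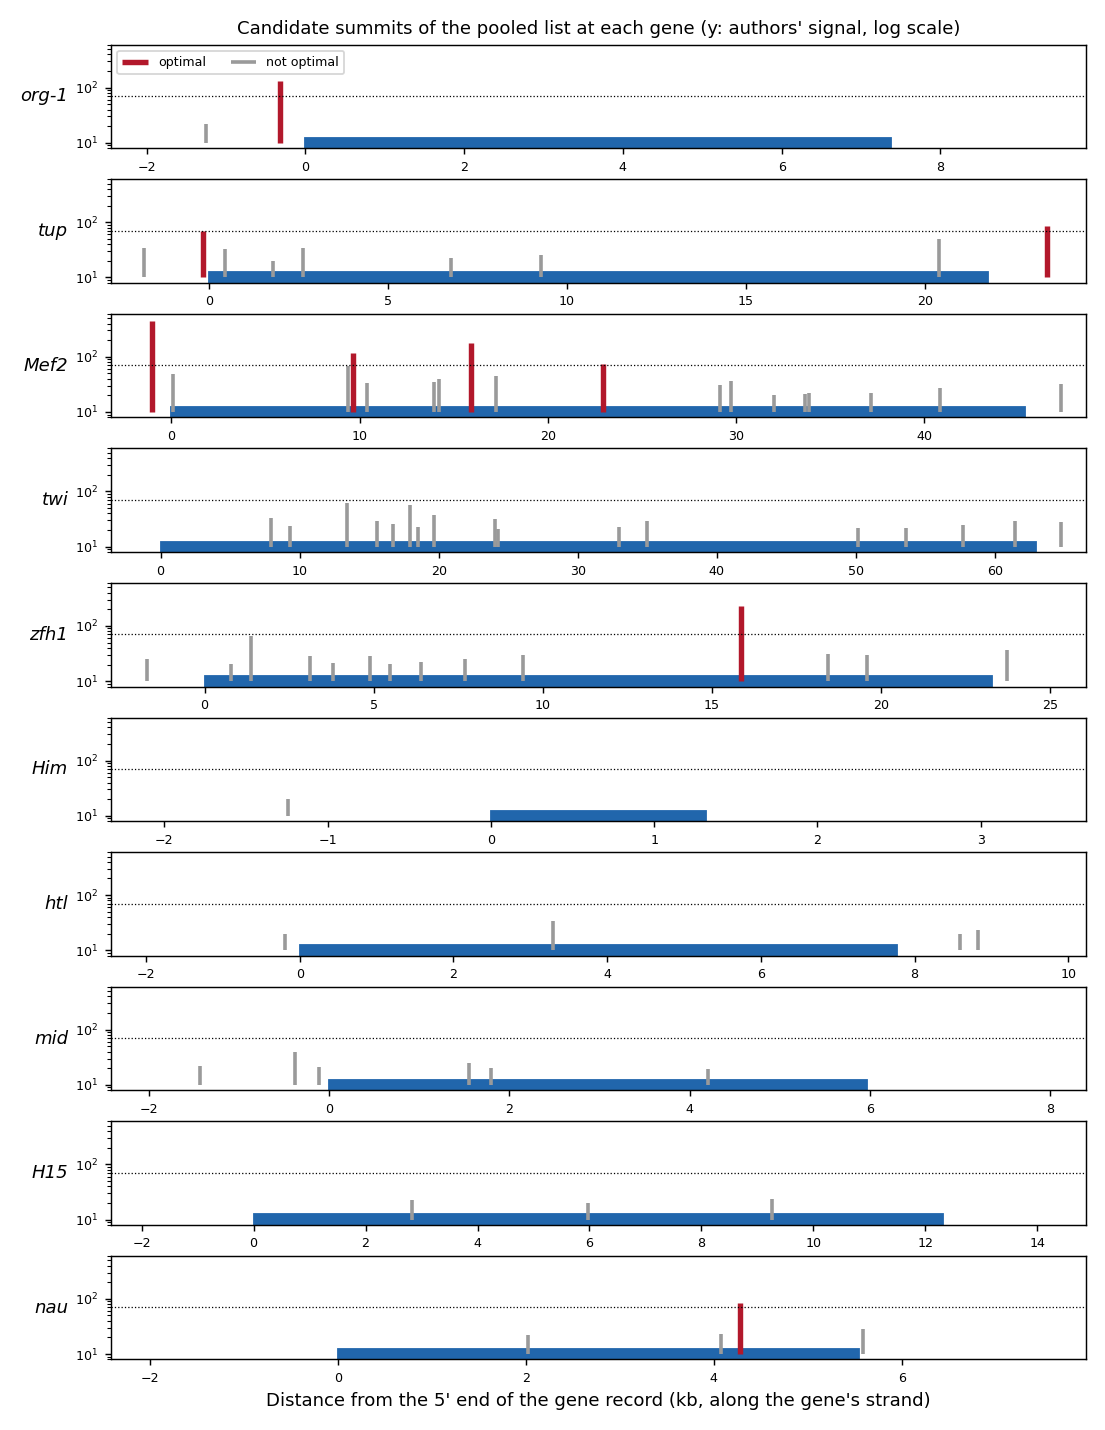
Summits of the pooled candidate list at the 10 genes, one panel per gene. The x axis is the distance in kb from the 5′ end of the gene record along its strand, the y axis the authors' signal on a log scale, the blue bar the gene body and the dotted line the weakest optimal signal (70.5). Optimal summits (red) stand at org-1, tup, Mef2, zfh1 and nau, and those at the other 5 genes (grey) lie below the line.

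The members other than Him (1315 bp) are longer than the median protein-coding gene, which bears on these counts. Their median length was 10041.5 bp, against 2164.5 bp for protein-coding genes, and longer genes had a summit more often. Of genes from 0.5 to 2 times as long as each member, 43.0% had an optimal summit for Mef2, 37.0% for zfh1, 36.0% for tup, 26.2% for org-1 and 22.9% for nau. The same share was 44.2% for twi, 31.3% for H15, 26.4% for htl, 23.7% for mid and 13.3% for Him, the shortest. At least as many optimal summits as Mef2 had (4) were found at 3.89% of genes of such length. At least as many as tup had (2) were found at 13.3% of genes 0.5 to 2 times as long as tup. Per length of window, the members held 3.85 optimal summits per 100 kb (9 in 234 kb), against 1.87 per 100 kb over the windows of all protein-coding genes and 2.23 over those within the members' length range. Without Mef2 the figure was 2.71 per 100 kb.

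Mef2, the muscle differentiation factor, had the strongest single summit of the group, in its upstream flank. Its gene record (FBgn0011656) lies at 2R 9913496 to 9958858 on the reverse strand and has 3 transcription start sites (TSSs). The strongest summit, at 9959916, had a pooled signal of 438 and ranked 49 of 30000, with rank 32 in replicate 2 (signal 253) and rank 67 in replicate 3 (signal 183). This summit lay 1058 bp upstream of the most upstream Mef2 TSS, and it was closer to other genes. It fell in an intron of Pal1, which encodes an enzyme of peptide amidation. There it was 162 bp upstream of a TSS of Pal1 and 367 bp downstream of another. It was also 184 bp upstream of the TSS of Pdrg1. It therefore cannot be assigned to Mef2 by position.

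The other Mef2 summits lay inside the gene, and all 3 had a lower signal than the zfh1 summit (228). At 9942964 a summit in a 5′ UTR exon, 1800 bp downstream of the middle TSS, had a signal of 176 (rank 367). Its replicate ranks were 284 in replicate 2 (signal 101) and 580 in replicate 3 (signal 73.0), and the replicate summits fell on the same base as the pooled one. An intronic summit at 9949208, 4444 bp upstream of the middle TSS, had a signal of 116 and ranked 866, with rank 595 in replicate 2 (signal 71.4) and 1212 in replicate 3 (signal 51.9). The weakest, at 9935933 in an intron 6318 bp upstream of the downstream TSS, had a signal of 74.3 and ranked 1951. It ranked 2752 in replicate 2 (signal 31.2) and 1669 in replicate 3 (signal 44.0). The Mef2 summits thus spanned ranks 49 to 1951, from near the top of the optimal list to near its end at 2153. An intronic candidate at 9949452, had a signal of 67.3 and ranked 2333, just below the weakest optimal peak (70.5). It had its own candidate in each replicate, with a summit at 9949455 in replicate 2 (rank 2432, signal 33.6) and at 9949457 in replicate 3 (rank 3223, signal 32.1), and also overlaps the stronger replicate regions of the summit at 9949208.

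The Mef2 start sites themselves carried weaker candidates, most of them found in replicate 2 and not in replicate 3. The candidate 89 bp downstream of the most upstream TSS ranked 4253 in the pool and 1563 in replicate 2, and no candidate of replicate 3 overlapped it. The candidate 137 bp downstream of the middle TSS ranked 6711 in the pool and 2948 in replicate 2, again with none in replicate 3. At the downstream TSS a candidate 111 bp upstream ranked 11229 in the pool and 11071 in replicate 2, also with none in replicate 3, and another 488 bp downstream was in both replicates (rank 10541 in replicate 2 and 8229 in replicate 3). None of the 3 Mef2 start sites had an optimal summit closer than 1 kb. Over all members, 5 of the 14 pooled candidates within 1 kb of a member TSS overlapped a candidate of replicate 2 only, and 1 of 14 of replicate 3 only. Of these 5, 4 were at Mef2 and 1 at htl, and a pair at the middle Mef2 TSS (9944627 and 9944882) matched the same region of replicate 2. Over all 11882 pooled candidates within 1 kb of a protein-coding TSS the shares were 15.3% and 21.4%.

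zfh1 (FBgn0004606, 3R 30765926 to 30789202, forward strand), which restrains muscle differentiation, had 1 optimal summit and 13 weaker candidates. The optimal one lay at 3R 30781779, in an intron and 1479 bp upstream of the internal TSS, and also within an intron of the antisense gene asRNA:CR45189. It had a signal of 228 and ranked 208, and both replicates placed it close to that, at rank 209 in replicate 2 (signal 114.9) and 240 in replicate 3 (signal 109.7). The optimal region was narrow, 149 bp against a median of 410 bp in the optimal list, as was that of org-1 (154 bp). In the replicates the zfh1 region had the median width of each list, 400 bp in replicate 2 and 404 bp in replicate 3. A candidate in an intron 1384 bp downstream of the upstream TSS had a signal of 65.9 and ranked 2415. The replicates differed there, with rank 6535 in replicate 2 and 2042 in replicate 3. Him (FBgn0030900, X 18209427 to 18210741, forward strand), the other gene that restrains Mef2 activity, had a single pooled candidate, 1240 bp upstream of its TSS, with a signal of 20.2 and rank 27492. It overlapped a candidate of replicate 2 (rank 16728) and none of replicate 3.

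Of the bHLH genes, nau had an optimal summit and twi did not, but their strongest candidates stood in the opposite order in replicate 2, at rank 2446 for nau and 2181 for twi. That twi rank holds only with its long gene record, described below. nau (FBgn0002922, 3R 23712814 to 23718357, reverse strand), the MyoD family gene, had an optimal summit at 3R 23714075, in an intron 4282 bp downstream of its TSS, with a signal of 83.5 and rank 1601. Its rank was 2446 in replicate 2 (signal 33.5) and 1312 in replicate 3 (signal 49.9), so only replicate 3 placed it among its strongest 2153. The nearest protein-coding TSS was that of CG10300, 2548 bp away. twi (FBgn0003900, 2R 22985374 to 23048325, forward strand) had 17 pooled candidates and no optimal one. The strongest ranked 2701 (signal 62.1; rank 2703 in replicate 2 and 2917 in replicate 3) and lay 92 bp downstream of the TSS of CG9896, a gene that overlaps the twi record. The next ranked 3288 (signal 55.9; rank 2181 in replicate 2 and 2858 in replicate 3).

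The long twi record comes from 1 transcript that starts at 22985374, whereas the other TSSs lie at 23046108 and 23046322, next to the coding sequence. With twi limited to these short transcripts, an alternative chosen after seeing the data, 2 pooled candidates were left. The one in the coding exon, 461 bp downstream of a TSS, ranked 12982, and the one 3780 bp downstream of that TSS ranked 14716. The region around the twi coding sequence thus held only weak candidates.

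org-1 and tup had an optimal summit at their promoter. With org-1 and tup, 2 of 10 members had a promoter summit (1 kb or less from a TSS), against 10.8% of protein-coding genes. At org-1 (FBgn0021767, X 8447691 to 8455069, reverse strand) the summit lay 320 bp upstream of the most upstream TSS and ranked 687 in the pool (signal 131), 652 in replicate 2 (signal 68.1) and 749 in replicate 3 (signal 65.3). The replicate summits were within 8 bp of it. At tup (FBgn0003896, 2L 18859507 to 18881261, reverse strand) the summit lay 178 bp upstream of the only TSS, and its signal of 70.6 placed it at rank 2147 of 2153. It ranked 1922 in replicate 2 (signal 38.0) and 3150 in replicate 3 (signal 32.4), so that it was not among the strongest 2153 of replicate 3. The other optimal summit of tup, in the flank past its 3′ end, ranked 1503 (signal 86.5), with rank 1722 in replicate 2 (signal 40.4) and 1316 in replicate 3 (signal 49.8). It lay in an intron of CG10602 and 158 bp upstream of a TSS of that gene, far from the tup TSS at 23424 bp.

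**Figure D2:**
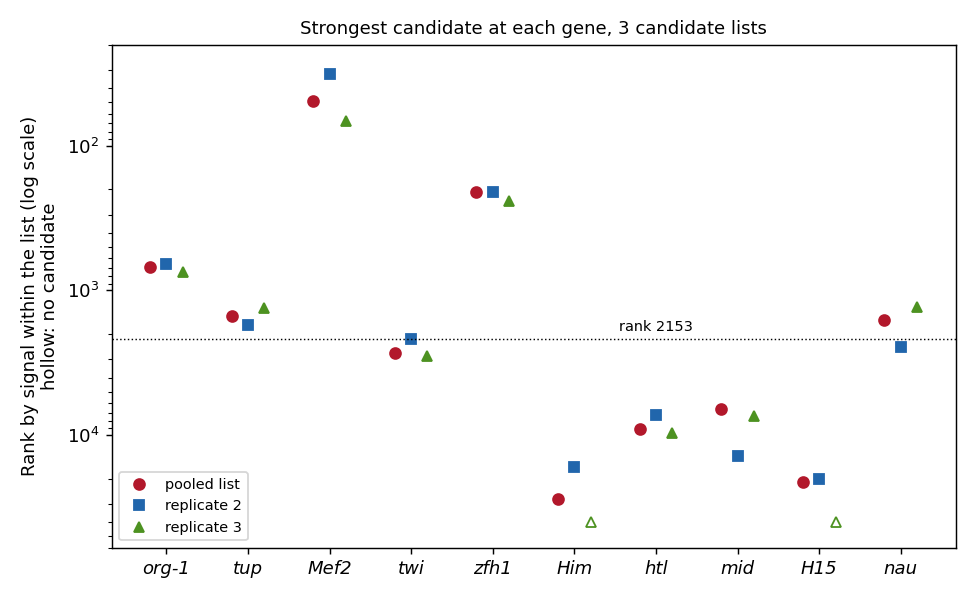
Rank of the strongest candidate at each gene by the authors' signal within the pooled list (circles), replicate 2 (squares) and replicate 3 (triangles), on a log scale with rank 1 towards the top; hollow triangles mark genes with no candidate in replicate 3. Mef2 and zfh1 stand highest in all 3 lists, at ranks 32 to 67 and 208 to 240, where the Mef2 points are the upstream summit close to Pal1 and Pdrg1 (inside the gene its best ranks are 284 to 580, behind zfh1), and Him and H15 lowest.

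The heart T-box pair and the FGF receptor gene had weak candidates only. The strongest at mid (FBgn0261963, 2L 5461639 to 5467610, forward strand) lay 374 bp upstream of its TSS and ranked 6590 in the pool (signal 39.5), 15164 in replicate 2 and 7342 in replicate 3. H15 (FBgn0016660, 2L 5404280 to 5416593, forward strand) had 3 candidates, of which the strongest was intronic and ranked 21155 (signal 23.2), with rank 21503 in replicate 2 and no overlapping candidate in replicate 3. No candidate summit of replicate 3 lay in the H15 window. htl (FBgn0010389, 3R 18045216 to 18052984, reverse strand) had 4 candidates, and the strongest lay 320 bp upstream of the internal TSS, at rank 9131 (signal 34.2; rank 7261 in replicate 2 and 9744 in replicate 3). In order of their strongest pooled candidate the members were Mef2, zfh1, org-1, tup, nau, twi, mid, htl, H15 and Him. The first 3 kept this order in both replicates. Mef2 leads through the upstream summit that cannot be assigned by position, and inside the gene its strongest candidate (rank 367) stood behind that of zfh1 (rank 208), as it did in replicate 2 (284 against 209) and replicate 3 (580 against 240). In replicate 2, twi stood above nau, htl above mid and Him above H15, and in replicate 3 nau stood above tup, so these neighbours are not separated. The place of twi in these orders rests on its long gene record. With the short transcripts its strongest pooled candidate ranked 12982, behind those of mid and htl. That candidate ranked 26722 in replicate 2, behind the nau summit.

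All 9 optimal peaks at the members overlapped a candidate in both replicates, as did 99.95% of all optimal peaks. By the stricter measure, both replicates placed 6 of the 9 among their strongest 2153 candidates, against 70.3% of all optimal peaks. The exceptions were the tup promoter, the weakest Mef2 summit and the nau intron, which ranked 2147, 1951 and 1601 in the pool. Among the strongest 5000 of each replicate all 9 were found, as were 96.5% of all optimal peaks. Each replicate used alone gave similar counts: 4 members had one of the strongest 2153 candidates of replicate 2 and 5 had one of replicate 3, against 18.7% of protein-coding genes for replicate 2 and 18.7% for replicate 3. The gene missing from replicate 2 was nau. Of the 8 strongest candidates of replicate 2 at members, 1 had no candidate in replicate 3, the one at the Mef2 TSS, against 1.39% of all its strongest candidates. Of the 9 of replicate 3, 0 had none in replicate 2, against 1.76%.

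**Figure D3:**
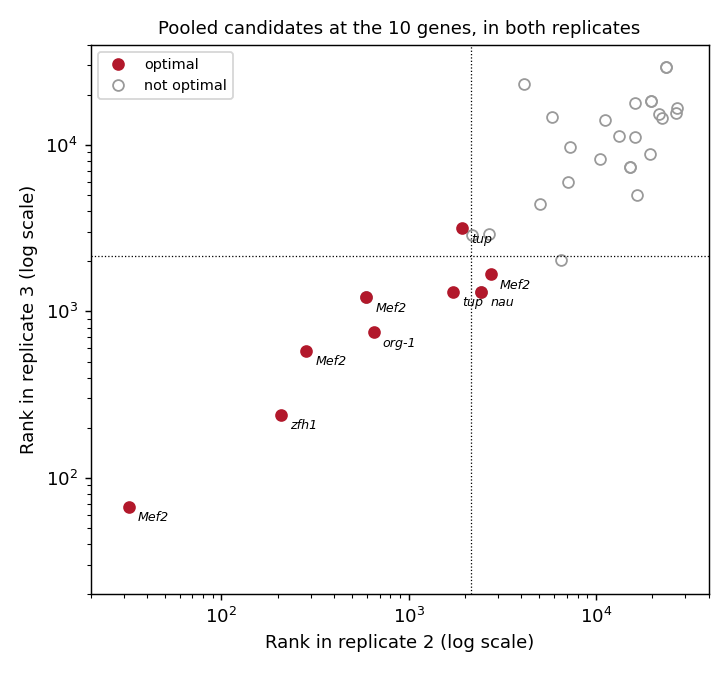
Ranks in replicate 2 (x axis) and replicate 3 (y axis), both on log scales, of the pooled candidates at the 10 genes that overlap a candidate in both replicates; dotted lines mark rank 2153. The 9 optimal peaks (red, labelled by gene) lie towards the lower left, with tup, Mef2 and nau each having 1 peak beyond a line. The other candidates (grey) lie mostly at the upper right, except 2 hidden behind optimal peaks of Mef2 and nau whose replicate regions they share.

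The members' windows held 78 pooled candidates, of which 9 (11.5%) were optimal, against 7.18% of all pooled candidates, and their median rank was 13702.5 against 15000.5 overall. A candidate in both replicates was found for 36 of the 78 (46.2%), against 50.7% of all pooled candidates. Of the rest, 18 had one in replicate 2 only, 15 in replicate 3 only and 9 in neither. Some neighbouring candidates share a replicate region. Over the 31 distinct pairs of replicate regions the ranks had a Spearman rho of 0.835, a description across regions that share both libraries, at a range of ranks that includes the selected optimal peaks. With shared regions kept, rho was 0.861 over the 36 member candidates in both replicates. Counted that way, it was 0.566 over all 15208 pooled candidates in both replicates.

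Of the 9 optimal summits, 4 were intronic, 2 were at promoters, 2 were in the flanks and 1 was in a 5′ UTR exon. Classed the same way over all protein-coding genes, with a summit counted once for each gene whose window holds it, 21.6% of 3419 pairs of gene and optimal summit were intronic, 48.7% were at promoters, 28.5% were in the flanks and 0.0585% were in a 5′ UTR beyond the promoter. No optimal summit at a member was in a coding exon, against 0.205% over protein-coding genes. Of the 78 pooled candidates, 42 (53.8%) were intronic, 14 (17.9%) at promoters and 6 (7.69%) in coding exons, against 21.3%, 35.0% and 10.6% over protein-coding genes. Gene length was not adjusted for here. Of the 78, 17 were counted at twi through its long record. With its short transcripts 2 of these remain, neither of them intronic, so the intronic share depends on that record. The flanking summits were those near TSSs of Pal1 and of CG10602. Of the 9 optimal summits, 6 had a TSS of the member as the nearest protein-coding one, at 4 genes (Mef2, zfh1, tup and org-1). The matching share over all pairs of gene and optimal summit is not given, so this count cannot be called high or low.

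The words given with the sequences were counted at the members' optimal summits. Within 100 bp of the summit, TAATTA was at 0 of 9, against 12.9% of all optimal and 9.17% of all pooled summits. TGATNNAT was also at 0 of 9, against 12.0% of optimal summits. AGGTGT and CAGGTAG were at 0 of 9 as well, against 6.13% and 1.11% of optimal summits. E-boxes were at 6 of 9, against 63.7% of optimal and 66.9% of pooled summits, and the Twist form CATATG was at 1, the weakest Mef2 summit, which held it at 2 positions, against 7.57% of optimal summits. GATAA was at 2 of 9, the strongest Mef2 summit and zfh1, against 38.7%, and GAGAG at 1 of 9, the tup promoter, against 27.6%. A single summit is 11.1% of 9, so these counts are coarse beside the shares. They also turn with the window. Within 200 bp TAATTA was at 1 of 9 summits, against 22.9% of optimal summits, and TGATNNAT at 2, against 21.6%. In the same window GATAA was at 6 of 9, against 59.1%, AGGTGT at 2, against 10.8%, and CAGGTAG at 1, against 2.28%. GC content within 100 bp ranged from 32.8% at the strongest Mef2 summit to 60.2% at the tup promoter, with a median of 35.8%, against 37.8% over all optimal summits and 46.3% over all pooled ones.

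Other regulators of mesoderm and muscle also had optimal summits. Of 39 further regulators, named with earlier results of these data known, 16 (41.0%) had an optimal summit by the rule used for the members, against 18.7% of protein-coding genes. At a promoter, 3 of the 39 had one, against 10.8% of protein-coding genes. The strongest were at Mad, the Smad of the BMP pathway (signal 328, rank 92, 656 bp from a TSS), N, the Notch receptor gene (198, rank 288), ths (thisbe, a ligand of the htl receptor; 166, rank 428) and pnt (pointed, an ETS factor; 148, rank 537). Among these 39, the genes that work with htl were singled out after their values were seen: ths and stumps, its intracellular adaptor gene (signal 119, rank 822), had 1 optimal summit each, and pyr, the gene of the other ligand, had 0. tin, bap and sna, regulators of the early mesoderm, had 0 as well and were also named after their values were seen. Of 26 genes for muscle structure, 7 (26.9%) had an optimal summit, and 4 of the 26 had one at a promoter. The strongest were at Zasp52 (signal 202, rank 274), Msp300 (166, rank 423), sls (143, rank 584) and the integrin gene if (113, rank 917). The strongest summit lay 27666 bp from a TSS of the gene at N, 12197 bp at pnt, 1485 bp at ths and 5571 bp at stumps. It lay 13589 bp away at Zasp52, 29101 bp at if, 357 bp at Msp300 and 288 bp at sls. Whether another gene lay closer is not given for these lists. Gene length differs between these lists and was not adjusted for.

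**Figure D4:**
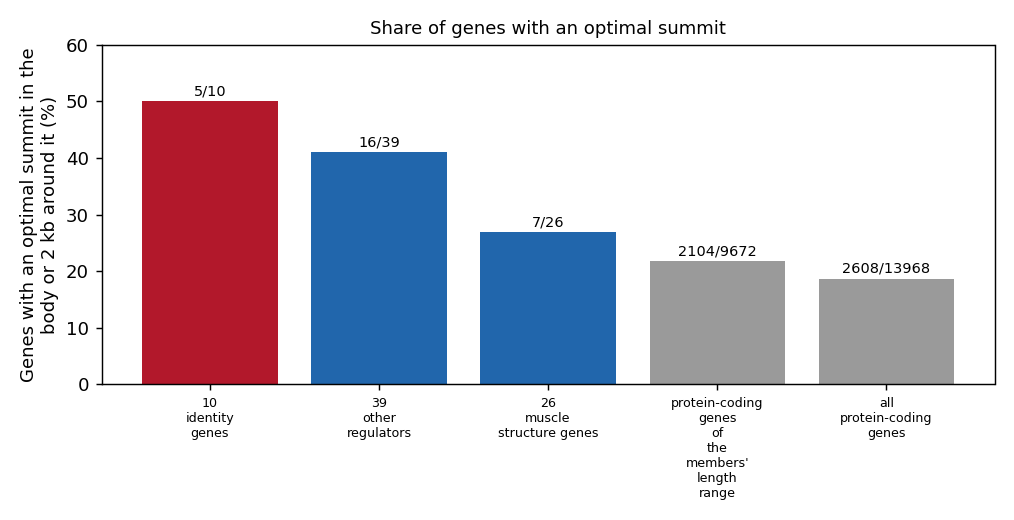
Share of genes, in percent, with an optimal summit inside the gene or at most 2 kb outside it, for the 10 identity genes (red), the 39 other regulators and 26 muscle structure genes (blue), and protein-coding genes within the members' length range and in all (grey); numbers above the bars are genes with a summit over genes in the group. The 10 identity genes stand at 5 of 10 and all protein-coding genes at 18.7%.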

How the data were processed

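The files used were 4 dm6 peak lists in narrowPeak layout: candidate regions (replicate 2, replicate 3 and the pool) that served as input to an irreproducible discovery rate (IDR) procedure, and the optimal peaks that passed it. The deposited README files say that candidates came from alignments and a control file. The aligner, peak caller and IDR cutoff were "not given in the sources used here". Column 7, the signal, is the authors' deposited value per region and was ranked within each list (ties take the lowest rank). The authors' deposited −log10 q-value column is tied among strong regions and served for no ranking. The optimal peaks were exactly the 2153 strongest pooled candidates. The dm3 lists were not used, and nothing was converted between builds.

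Summits were placed on Ensembl release 115 gene models (BDGP 6.54), with sequence from the RefSeq copy of the Release 6 assembly, and no region ran past a chromosome end. A summit at most 1 kb from any TSS of a gene was called promoter, and otherwise coding exon, UTR, noncoding exon, intron or flank. A replicate was matched by an overlap of at least 1 bp, taking its strongest candidate. All 39 and 26 names of the further lists matched a gene, cf2 and Unc-89 through a synonym. Window counts were tested on simulated data first. The members and lists were chosen with earlier results of these data known. Named genes were the members, genes at their summits and up to 4 of each further list with the strongest optimal summit. Python 3.11.15, pandas 2.3.3 and scipy 1.17.1 were used. Alternatives were other windows, other numbers of top regions, each replicate alone, other overlaps and other word windows.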

Additional observations from a re-analysis of the deposited data

How the results depend on the processing

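The counts rest on few summits and on the width of the window. Over gene bodies alone 3 members (against 7.11% of protein-coding genes) and 5 optimal summits were counted, and with the upper part of the optimal list by signal (at or above its median) also 3 members (org-1, Mef2 and zfh1; against 10.6% of protein-coding genes) and 5 summits. The strongest 5000 pooled candidates gave 15 summits at 6 members, twi being added, against 35.3% of protein-coding genes. Windows of 1 kb and 5 kb around the gene gave 5 members each, with 7 and 10 summits, against 15.3% and 27.5% of protein-coding genes. Keeping only summits nearest to a TSS of the member, an alternative chosen after seeing the data, left 4 members and 6 summits. Members with a promoter summit numbered 4 within 2 kb of a TSS, and 1 to 3 when 1 replicate was left out: 1 without replicate 2 (org-1 only) and 3 without replicate 3, Mef2 being added through the candidate that replicate 3 lacks. Peaks strong in both replicates numbered 4 with an overlap of at least 50% of both regions. The nearest-TSS, promoter and overlap counts are given without a share over all genes or all optimal peaks. They cannot be set beside the shares given for the main rules. Of the 8 words, 2 were found at any member summit within 50 bp and 8 within 200 bp, in place of 4. The twi record held 17 pooled candidates, or 2 with its short transcripts. Where a value moved, the cause was not tested. No paired analysis was possible because there is 1 group. Depth is unknown, so a weak rank is no sign that a site is unbound.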

Other observations

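Beyond the 2 kb limit, 4 optimal summits had a TSS of a member as the nearest protein-coding one, at 3 members. The share of all protein-coding genes with such a summit is not given, so this count cannot be called high or low. The region around the T-box pair held 2 of the 4 summits. One summit lay 8962 bp past the 3′ end of H15 and 20922 bp from its nearest TSS, in the interval towards mid. It had a signal of 91.8 and rank 1354 (rank 1106 in replicate 2 and 1521 in replicate 3). The other lay 9305 bp past the 3′ end of mid and 15276 bp from its TSS, with a signal of 150 and rank 526 (rank 530 in replicate 2 and 651 in replicate 3). Neither lay in an annotated gene, and both ranked well above every candidate within 2 kb of H15 or mid.

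tup had the other 2, at 9052 bp and 18170 bp upstream of its TSS, with signals of 132 and 112 and ranks 685 and 933. The nearer one ranked 429 in replicate 2 and 1462 in replicate 3, and the farther one 1138 in replicate 2 and 916 in replicate 3. Both were stronger than the tup promoter summit. For the remaining genes without an optimal summit, the nearest one to twi lay 48428 bp upstream of its long record (at CNBP). The short twi transcripts start farther from that summit. The nearest one to htl lay 72225 bp away (3148 bp from a TSS of sr, a gene of tendon cell fate). The nearest one to Him lay 157498 bp away (nearest to CrebB). Distance to a TSS assigns a summit by position only, and whether these summits act on the genes named was not tested.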
